A study of Mus musculus with 16 samples.

Results

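A set of 8 adipocyte genes was followed in the transcriptome of mouse quadriceps: leptin (Lep), adipsin (Cfd), adiponectin (Adipoq), resistin (Retn), perilipin 1 (Plin1), Cidec, Fabp4 and gamma-synuclein (Sncg). They were taken by gene symbol, as 8 of the 23970 symbols in the expression table, and all 8 were among the 11256 genes expressed highly enough to be tested. The set holds secreted adipokines beside structural genes of the fat cell, so that the first can be read against the second in the same library. RNA came from 16 male C57BL/6NTac mice aged 16 weeks, 4 in each of 4 groups. CON-pre mice had eaten a control diet and HFD-pre mice a high-fat diet, and both were sampled without a run to exhaustion. Per the study's methods, these mice had been acclimatized to the treadmill and fasted in the same way as the exercised mice. CON-post and HFD-post mice had eaten the same 2 diets and were sampled 3 h after 1 run to exhaustion on a treadmill. The groups before and after exercise were different mice, so that no animal was measured in both states, and all mice were of 1 sex and 1 substrain. The expression unit is FPKM, the number of fragments scaled to transcript length and to library size, which allows levels to be compared between genes as well as between libraries.

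Adipocytes store triglyceride in a lipid droplet coated by perilipin and release hormones, the adipokines, into the blood. Skeletal muscle contains few adipocytes, lying between the fibres and along vessels, and their messenger RNA is part of any whole-muscle extract. Leptin synthesis is known to increase with the size of the fat store, whereas adipsin, the complement factor D protease that adipocytes secrete, is known to be low in obese rodents. In whole tissue, fewer cells of a type and less RNA per cell cannot be told apart.

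The tissue label held in every library. The 9 skeletal muscle markers, including the creatine kinase Ckm and the parvalbumin gene Pvalb, summed to between 53670 and 76843 FPKM. Before exercise these sums did not overlap between the diets, at 70415 to 76843 FPKM in CON-pre and 61260 to 66912 in HFD-pre, while after exercise they ran from 60698 to 71084 in CON-post and from 53670 to 65677 in HFD-post. The 8 adipocyte genes together took 0.115 to 0.223% of all FPKM. Libraries had total FPKM between 283575 and 329282, correlated with each other at r of 0.966 to 0.984 on the log2 scale across genes, and had relative depths, estimated from the size of the smallest values, of 0.706 to 1.12 times that of the first CON-pre library. None of the 8 genes was listed at 0 in any library. Fabp4 was the most abundant of them, with a mean of 329 FPKM over the 16 libraries, rank 81 of the 11256 tested genes. Cfd followed at 71.2, then Adipoq at 20.6, Sncg at 14.2, Cidec at 12.6, Retn at 11.3, Plin1 at 4.16 and Lep at 3.53 FPKM. This order pools the diets and was that of neither. On the control diet Retn (13.4) and Cidec (10.4) were above Sncg (7.91), and Lep was lowest at 0.573 FPKM. On the high-fat diet Sncg (20.4) was above Cidec (14.8) and Retn (9.20), and Lep (6.49) was above Plin1 (4.45). Neighbours in this order had overlapping library ranges for Retn, Cidec and Sncg on each diet, and for Plin1 and Lep on the high-fat diet, whereas Retn and Sncg did not overlap on the control diet.

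The DNA just upstream of the 5 genes whose levels the diet comparisons turn on or are read against is shown here, since these sequences precede the transcripts being measured. Each is the 250 bases before the RefSeq start site in the GRCm38.p6 assembly, written 5′ to 3′ on the gene's own strand. Capitals mark matches to the core of a C/EBP site (TTGCNNAA), to TATAA or to CCAAT on either strand. Lep lies on the plus strand of chromosome 6 (chr6:29059971-29060220), Cfd on the plus strand of chromosome 10 (chr10:79890603-79890852) and Retn on the plus strand of chromosome 8 (chr8:3655520-3655769). Sncg lies on the minus strand of chromosome 14 (chr14:34374670-34374919), and Adipoq on the plus strand of chromosome 16 (chr16:23146286-23146535).
Lep: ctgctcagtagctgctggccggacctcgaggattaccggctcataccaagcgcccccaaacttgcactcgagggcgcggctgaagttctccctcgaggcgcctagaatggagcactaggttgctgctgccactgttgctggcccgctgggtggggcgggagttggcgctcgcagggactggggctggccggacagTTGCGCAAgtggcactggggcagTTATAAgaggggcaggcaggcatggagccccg
Cfd: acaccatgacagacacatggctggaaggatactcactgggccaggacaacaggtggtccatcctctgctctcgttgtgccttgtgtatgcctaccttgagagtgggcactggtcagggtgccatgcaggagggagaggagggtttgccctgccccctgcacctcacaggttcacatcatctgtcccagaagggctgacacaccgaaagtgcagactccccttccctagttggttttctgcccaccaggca
Retn: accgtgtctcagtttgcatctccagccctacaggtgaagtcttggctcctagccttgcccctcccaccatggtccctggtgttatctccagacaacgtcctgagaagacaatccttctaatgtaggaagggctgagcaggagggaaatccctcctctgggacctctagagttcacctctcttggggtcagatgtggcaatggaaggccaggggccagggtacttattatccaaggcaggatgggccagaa
Sncg: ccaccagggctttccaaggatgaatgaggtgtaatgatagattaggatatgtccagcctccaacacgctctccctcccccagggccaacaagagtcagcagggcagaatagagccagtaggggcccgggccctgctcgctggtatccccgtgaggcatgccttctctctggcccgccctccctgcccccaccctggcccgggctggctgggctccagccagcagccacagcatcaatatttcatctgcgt
Adipoq: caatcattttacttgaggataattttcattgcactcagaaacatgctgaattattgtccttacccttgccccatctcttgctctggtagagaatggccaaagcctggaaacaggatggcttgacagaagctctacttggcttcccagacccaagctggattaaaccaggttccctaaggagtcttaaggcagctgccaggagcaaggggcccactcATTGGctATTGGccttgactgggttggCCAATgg
The Lep sequence holds 1 C/EBP core match, TTGCGCAA, whose first base lies at position -55 from the start site, and overlapping TATAA matches on the 2 strands at -32 and -31. C/EBP alpha is the factor of that family known for adipocyte differentiation. A C/EBP core match occurred in 9.56% of 32851 RefSeq promoter windows of this length, and a TATAA match in 22.8%. The Adipoq sequence holds 3 CCAAT matches, at -34, -27 and -7, a motif found in 33.8% of windows. The Cfd, Retn and Sncg windows hold none of these 3 motifs. The GC-box letters GGGCGG were also searched on both strands, were found in 32.7% of windows, and occur at -98 in Lep and at -78 in Sncg. The half-site AGGTCA, bound by nuclear receptors such as PPAR gamma, is in none of the members' windows and in 14.0% of all. Of the genes not printed, Plin1 (chromosome 7, minus strand) has C/EBP core matches at -187 and -58, and Cidec (chromosome 6, minus strand) has 1, at -198 from the second of its 2 listed starts. Fabp4 lies on chromosome 3.

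The first question was how the adipocyte genes differed with diet in muscle sampled without a run to exhaustion. Lep was higher and Cfd lower in HFD-pre than in CON-pre, while the adipocyte genes Adipoq, Plin1, Cidec and Fabp4 had group means that differed by at most 1.10-fold. Of the 8 genes, 2 were called, 1 in each direction, by limma at an adjusted p under 0.05, where 39 of 11256 genes (0.346%) were called. Lep, Cfd and Sncg, 3 of the 8, had no overlap between the groups, against 5.62% of all tested genes. The median log2 fold change was 0.09 over the 8 genes and -0.03 over all tested genes.

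Leptin, the adipocyte hormone that acts on the hypothalamus to restrain feeding, was read at 0.190, 0.672, 0.127 and 1.07 FPKM in the 4 CON-pre libraries. In the 4 HFD-pre libraries Lep was at 6.74, 2.83, 3.16 and 5.38 FPKM. The lowest HFD-pre value thus lay above the highest CON-pre value. Means were 0.514 ± 0.442 and 4.52 ± 1.86 FPKM (SD, n = 4 each), an 8.79-fold difference of means that became 13.7-fold without CON-pre replicate 4. On the log2(FPKM + 0.5) scale, which understates the change of a gene this low, the difference was 2.34 (SE 0.41, limma adjusted p = 0.0138). This call was lost on leaving out any of 4 libraries, CON-pre replicates 1 and 3 and HFD-pre replicates 1 and 4, with adjusted p of 0.0728, 0.0583, 0.0755 and 0.0623 and differences of 2.14 to 2.24.

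Adipsin activates the alternative complement pathway by cleaving factor B. Cfd was at 104, 83.1, 94.5 and 140 FPKM in CON-pre and at 17.7, 34.1, 37.5 and 20.3 FPKM in HFD-pre. Every HFD-pre library was below every CON-pre library by a wide margin. Means were 105 ± 24.5 and 27.4 ± 9.88 FPKM (SD, n = 4 each), so that CON-pre was 3.84-fold higher. Cfd fell by 1.97 on the log2 scale (SE 0.27, limma adjusted p = 0.00440), and it ranked 5 among all tested genes by p.

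Resistin, an adipocyte hormone of rodents linked to insulin resistance, was read at 12.2, 11.0, 12.0 and 16.6 FPKM in CON-pre. In HFD-pre Retn was at 12.1, 6.70, 7.68 and 5.68 FPKM. All HFD-pre libraries but replicate 1 lay below every CON-pre library. The difference was -0.69 (SE 0.24), with a limma adjusted p of 0.409.

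Gamma-synuclein, a small protein known from sensory neurons and abundant in white adipocytes, was read at 5.25, 8.40, 7.38 and 10.7 FPKM in CON-pre. In HFD-pre Sncg was at 20.4, 17.6, 15.2 and 13.6 FPKM. The groups did not overlap, and the HFD-pre mean was 2.11-fold the CON-pre mean. The difference of 1.05 (SE 0.31) nevertheless missed the threshold over all genes, with a limma adjusted p of 0.259.

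Adiponectin, the most abundant hormone of the fat cell and one whose blood level is known to be low in obesity, was read at 17.2, 17.6, 13.7 and 21.1 FPKM in CON-pre. In HFD-pre Adipoq was at 22.3, 17.3, 15.4 and 18.3 FPKM. The groups overlapped almost entirely, with a difference of 0.07 (95% confidence interval -0.57 to 0.72). Plin1, the droplet coat protein that gates lipolysis, differed by -0.10 (-0.62 to 0.42), and Cidec, which fuses droplets, by 0.11 (-0.51 to 0.73). Fabp4, a fatty acid chaperone of adipocytes that capillary endothelium and macrophages also express, differed by 0.10 (-0.25 to 0.45). Adjusted p in limma was between 0.946 and 0.984 for these 4 genes, and the intervals leave room for moderate differences in either direction.

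**Figure D1:**
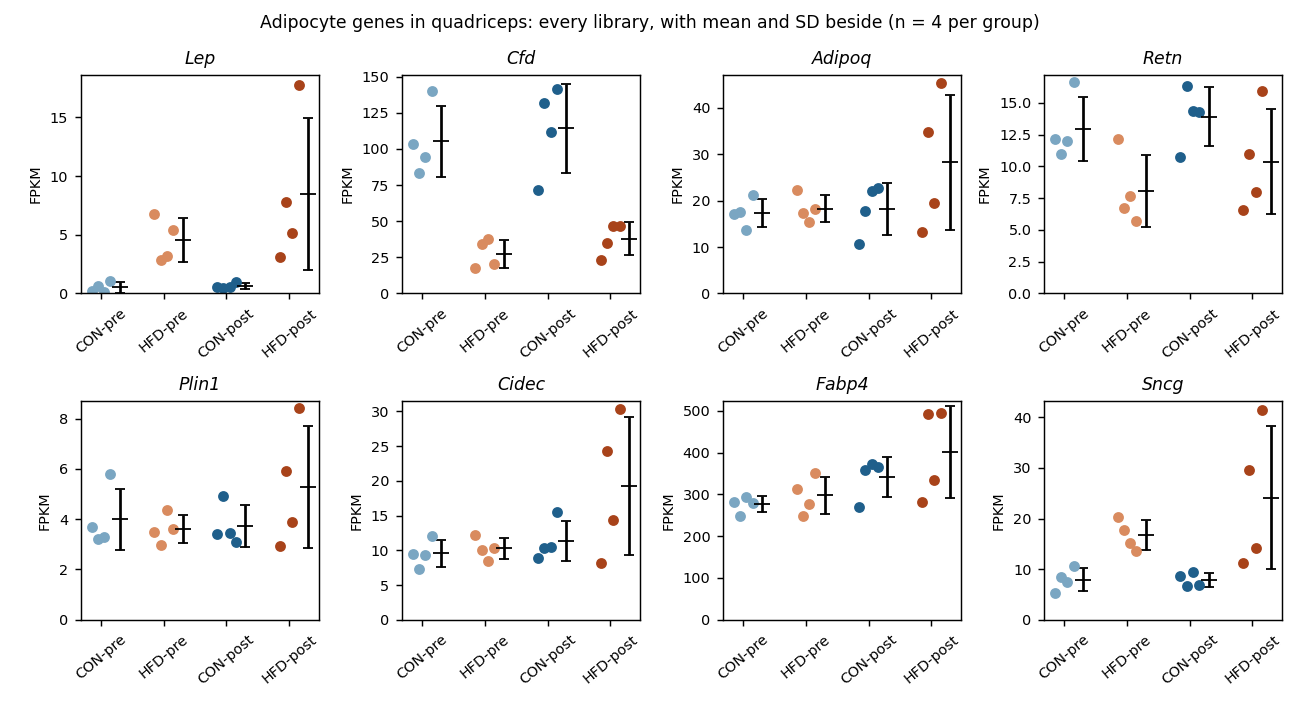
Expression of the 8 genes in each library (FPKM, linear axes from 0, a separate axis per gene), with points for the 4 libraries of each group and the mean with SD drawn beside them. Lep, Cfd and Sncg separate the 2 diets before and after exercise, whereas the Adipoq, Plin1, Cidec and Fabp4 points of the diets overlap.

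The second question was whether the diet difference was also seen 3 h after exercise, in other mice. Lep was again higher and Cfd again lower on the high-fat diet, and these were the 2 members called among 17 genes in all (0.151%). Lep, Cfd and Sncg again showed no overlap, against 3.16% of all tested genes. The median difference over the 8 genes was 0.45, above that over all genes at 0.00, and the spread among the HFD-post libraries was large.

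Lep was at 0.568, 0.433, 0.569 and 0.957 FPKM in CON-post and at 3.14, 7.77, 5.18 and 17.8 FPKM in HFD-post. The highest HFD-post library exceeded the lowest by several fold, yet all 4 lay above every CON-post library. The fold of means was 13.4, or 8.49 without HFD-post replicate 4, and the log2 difference was 2.74 (SE 0.41, limma adjusted p = 0.00893). Cfd was at 71.5, 132, 112 and 141 FPKM in CON-post and at 23.4, 35.0, 47.0 and 46.5 FPKM in HFD-post. Cfd fell by 1.58 on the log2 scale (SE 0.27, limma adjusted p = 0.0253), with CON-post 3.01-fold higher by means. Sncg was at 8.54, 6.70, 9.48 and 6.81 FPKM in CON-post and at 11.3, 29.7, 14.1 and 41.5 FPKM in HFD-post. The Sncg ranges did not overlap, and the difference of 1.38 (SE 0.31) had a limma adjusted p of 0.132. Fitting only the 2 groups compared ended both the Lep and the Cfd call (adjusted p = 0.109 each), and testing without a filter on low genes ended that of Cfd (0.0738). Leaving out CON-post replicate 2 ended the Lep call (adjusted p = 0.0534). The Cfd call ended without CON-post replicate 2, 3 or 4 (adjusted p = 0.111, 0.0844 and 0.0777) or HFD-post replicate 1 or 2 (0.0831 and 0.0642), while Sncg was called, at 1.67 (adjusted p = 0.0330), without HFD-post replicate 1.

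The remaining genes did not separate the diets after exercise. Adipoq was at 10.6, 17.7, 22.1 and 22.7 FPKM in CON-post and at 13.2, 34.8, 19.5 and 45.4 FPKM in HFD-post, a difference of 0.52 (SE 0.31, limma adjusted p = 0.910). Retn was at 10.7, 16.3, 14.4 and 14.2 FPKM in CON-post and at 6.52, 11.0, 8.01 and 15.9 FPKM in HFD-post, a difference of -0.47 (SE 0.24, adjusted p = 0.847). Of the HFD-post libraries, replicates 2 and 4 reached into the CON-post range for Retn and exceeded it for Adipoq. Differences were 0.38 for Plin1, 0.62 for Cidec and 0.20 for Fabp4, with limma adjusted p of 0.918, 0.802 and 0.952.

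**Figure D2:**
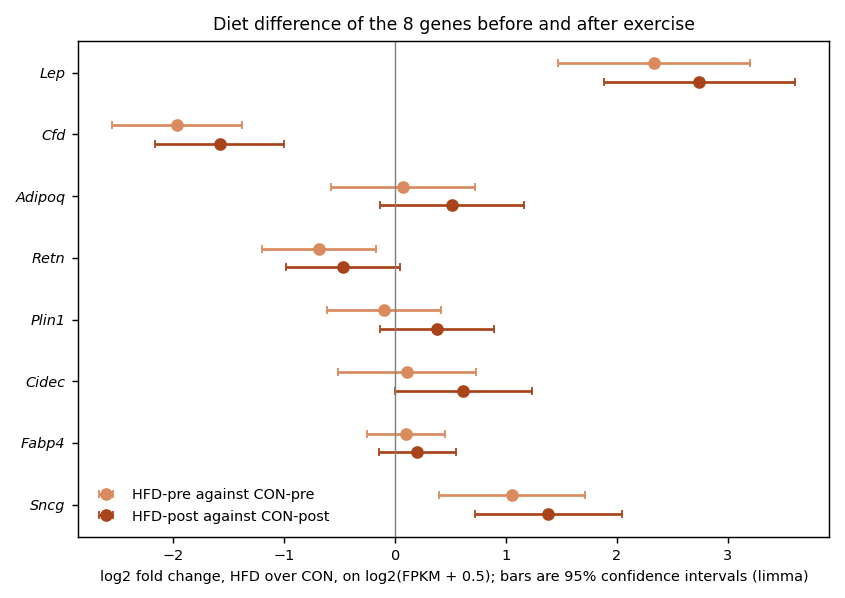
Log2 fold change of HFD over CON for each gene before and after exercise, on log2(FPKM + 0.5), with 95% confidence intervals from limma. The Lep intervals lie above 0 and the Cfd intervals below 0 in both states, Sncg also lies above 0 with adjusted p of 0.259 and 0.132, and the intervals of Adipoq, Plin1, Cidec and Fabp4 include 0 in both.

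Averaging the diet difference over the 2 exercise states used all 8 libraries of each diet. Lep and Sncg rose and Cfd fell, so that 3 of the 8 genes were called where 108 genes in all (0.959%) were. The same 3 genes had no overlap between all CON and all HFD libraries, against 0.391% of tested genes. Lep rose by 2.54 (SE 0.29, limma adjusted p = 0.000243), Sncg rose by 1.22 (SE 0.22, adjusted p = 0.00967), and Cfd fell by 1.77 (SE 0.19, adjusted p = 0.000175). These 3 calls held under each of the 30 alternative settings and left-out libraries, with adjusted p of at most 0.00110 for Lep, 0.00117 for Cfd and 0.0320 for Sncg. Retn differed by -0.58 (SE 0.17, limma adjusted p = 0.163). Adipoq differed by 0.29, Plin1 by 0.14, Cidec by 0.36 and Fabp4 by 0.15, with limma adjusted p from 0.592 to 0.857.

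The spread within HFD-post was shared by the genes. Replicates 2 and 4 were the 2 highest libraries of that group for 7 of the 8 genes, all but Cfd, and replicate 1 was the lowest for 8 of 8. Adipocyte markers that are not members were read in the same libraries, 18 in all, among them Pparg and Cebpa, the regulators of adipocyte identity, and the hormone-sensitive lipase gene Lipe. The 2 libraries were the 2 highest of HFD-post for 12 of these 18 markers and the 2 highest of all 16 libraries for 5. The mean of these markers on the log2 scale, each centred on its own mean over the 16 libraries, was 0.32 and 0.40 in HFD-post replicates 2 and 4. It was between -0.18 and 0.12 in the other 14 libraries. Neither library can be assigned from the labels to a different dissection or batch, and what set them apart was not tested.

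**Figure D3:**
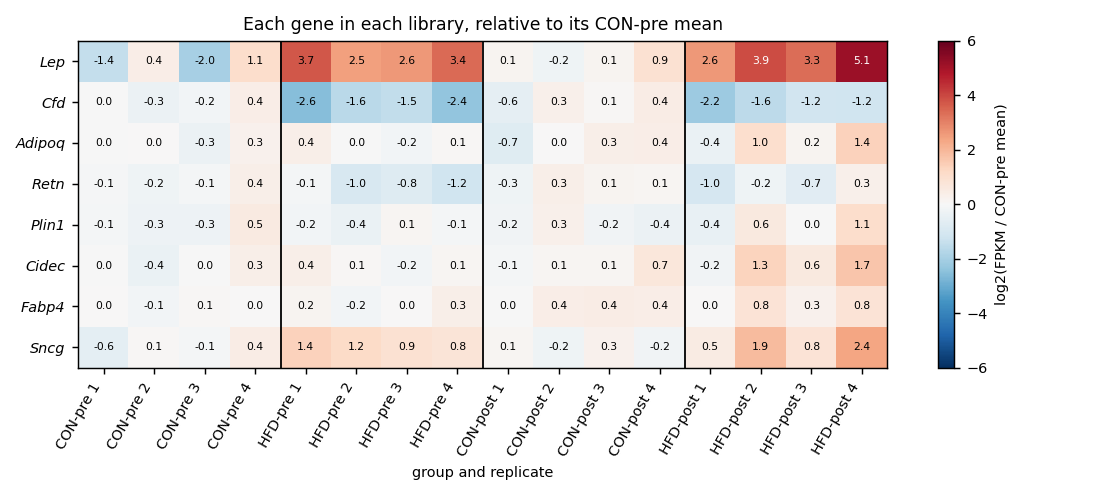
Level of each gene in each of the 16 libraries as log2 of FPKM over the CON-pre mean of that gene, with red for higher and blue for lower. HFD-post replicates 2 and 4 are red for Lep, Adipoq, Plin1, Cidec, Fabp4 and Sncg, and in all 8 HFD libraries the Lep row is red and the Cfd row blue.

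Leaving out both of these libraries, a choice made after seeing the data, moved the adipocyte genes but not the direction of the diet-responsive ones. After exercise, Lep then differed by 2.03 (limma adjusted p = 0.0796) and Cfd by -1.72 (adjusted p = 0.129). The Sncg difference after exercise went from 1.38 to 0.66 (adjusted p = 0.598), so that no member was called with the 2 HFD-post libraries that remained, where 4 of 11224 tested genes were. Averaged over the 2 states, Lep rose by 2.18 (adjusted p = 0.000597), Sncg rose by 0.86 (adjusted p = 0.0107) and Cfd fell by 1.84 (adjusted p = 0.00117). Retn then fell by 0.79 (adjusted p = 0.0289), and Sncg was called before exercise, at 1.05 (adjusted p = 0.0251). The differences after exercise of Adipoq, Plin1, Cidec and Fabp4 changed sign, to -0.13, -0.10, -0.03 and -0.14.

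Each gene was also expressed relative to Adipoq in the same library, which removes a shared part only where the gene varies in proportion to Adipoq. Within HFD-post Cfd did not. It was at 35.0 and 46.5 FPKM in replicates 2 and 4, where Adipoq was at 34.8 and 45.4 FPKM. In replicate 3 Cfd was at 47.0 FPKM, where Adipoq was at 19.5 FPKM. The Lep to Adipoq ratio was 0.00932 to 0.0536 in the 8 CON libraries and 0.164 to 0.391 in the 8 HFD libraries. The Cfd to Adipoq ratio was 4.73 to 7.44 in CON and 0.792 to 2.44 in HFD. The Retn to Adipoq ratio was 0.627 to 1.01 in CON and 0.311 to 0.544 in HFD. All 3 ratios thus separated the diets without overlap, as did 12 of 11255 tested genes (0.107%) when divided by Adipoq, although the Retn level itself did not. The Sncg to Adipoq ratio was 0.300 to 0.807 in CON and 0.724 to 1.02 in HFD, so that these groups overlapped, through 1 CON-post library. The ratios of Plin1, Cidec and Fabp4 overlapped broadly, with means in CON and HFD of 0.225 and 0.199 for Plin1, 0.601 and 0.622 for Cidec and 18.0 and 16.2 for Fabp4. Within HFD-post, where the Adipoq level itself varied widely, the Cidec ratio ran from 0.622 to 0.739, whereas the Fabp4 ratio ran from 10.9 to 21.4 and was lowest in replicates 4 and 2, where Adipoq was highest.

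**Figure D4:**
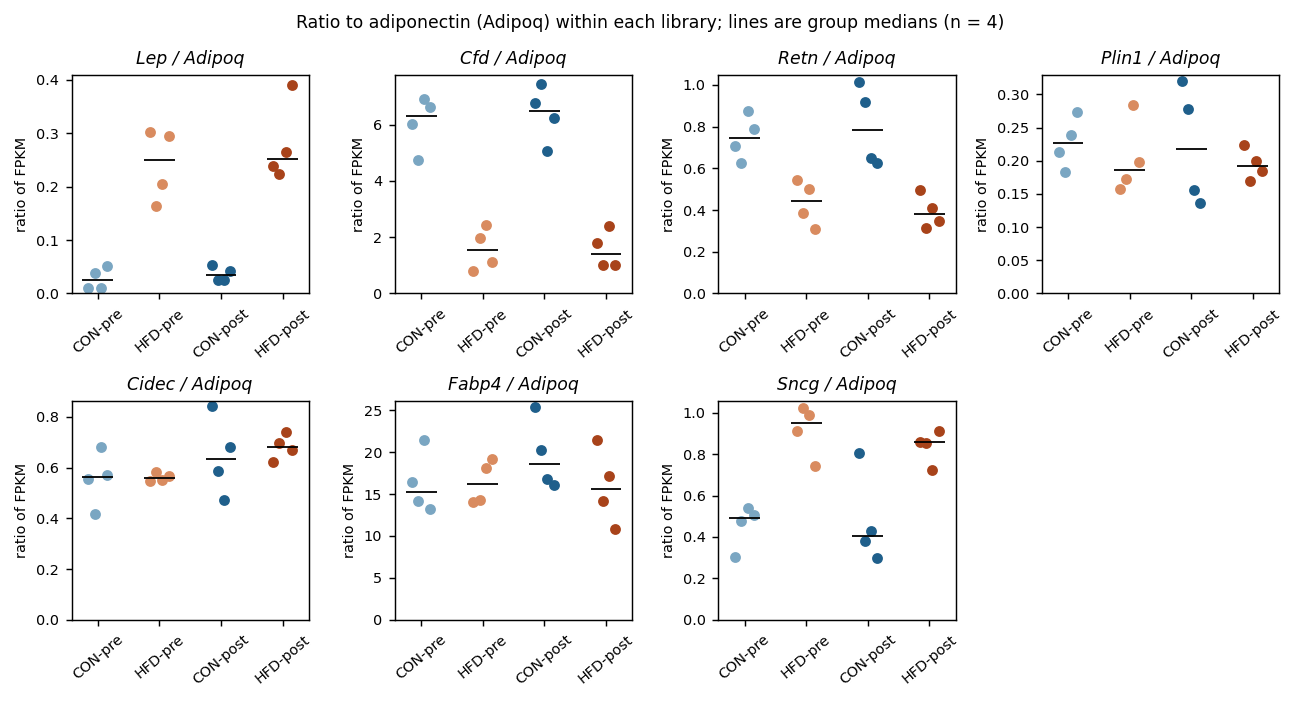
FPKM of each gene divided by the FPKM of Adipoq in the same library (linear axes from 0), with a point per library and a line at the median of each group of 4. The Lep, Cfd and Retn ratios of the 8 HFD libraries do not overlap those of the 8 CON libraries, and the Plin1, Cidec and Fabp4 ratios do.

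A related comparison was made as a test by adding a marker level to the model. The 18 adipocyte markers include Cidea and Adrb3, each called for diet, and genes that muscle fibres also express. Their mean is therefore not a measure of adipocyte content alone. With exercise on the control diet their median difference was 0.17, where that of Adipoq was 0.03. With the mean of the 18 adipocyte markers as a covariate, the diet differences averaged over the 2 states were 2.42 for Lep, -1.84 for Cfd, 1.11 for Sncg and -0.66 for Retn, with limma adjusted p of 3.9e-05, 5.33e-05, 0.000526 and 0.00847. Retn was therefore called in addition to Lep, Cfd and Sncg, where 115 genes in all (1.02%) were called. With Adipoq as the covariate, an alternative added after seeing the data, the values were 2.23 for Lep, -1.89 for Cfd, 1.00 for Sncg and -0.76 for Retn (limma adjusted p = 4.88e-05, 0.000125, 0.00648 and 0.00343), and 120 genes in all (1.07%) were called. Sncg was also called within each state under the marker covariate, at 1.00 before exercise (adjusted p = 0.0336) and 1.21 after it (adjusted p = 0.0161), but in neither state with Adipoq as the covariate, where it differed by 1.00 and 0.99 (adjusted p = 0.0742 and 0.192).

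The third question was whether acute exercise changed these genes. On the control diet, none of the 8 was called, against 125 genes in all (1.11%), none separated CON-post from CON-pre, against 5.82% of all genes, and none had an unadjusted limma p under 0.05, against 11.1% of all genes. The largest difference was 0.30 for Fabp4, with means of 276 ± 19.1 and 342 ± 48.7 FPKM (limma adjusted p = 0.533). Lep differed by 0.24 (95% confidence interval -0.62 to 1.11) and Cfd by 0.10 (-0.49 to 0.68).

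On the high-fat diet all 8 differences were above 0, with a median of 0.44 against 0.04 over all genes, but none was called, against 61 genes in all (0.542%), and none separated the groups, against 6.81% of all genes. Cidec differed most, by 0.73 (SE 0.29, limma adjusted p = 0.337), from 10.3 ± 1.55 to 19.3 ± 9.92 FPKM. Its HFD-pre libraries were at 12.2, 10.1, 8.46 and 10.4 FPKM and its HFD-post libraries at 8.18, 24.3, 14.4 and 30.4 FPKM. The lowest of these 8 values was an HFD-post library and the highest 2 were replicates 2 and 4 of that group. Without HFD-post replicate 1, Cidec was called at 1.07 (adjusted p = 0.0490), and without replicates 2 and 4 the difference was 0.09. Fabp4 differed by 0.40 (adjusted p = 0.347), and it and Cidec were the 2 of 8 with an unadjusted limma p under 0.05, as were 11.7% of all genes. Lep, at 0.65 (adjusted p = 0.569), changed sign to -0.07 without replicates 2 and 4. The interaction of diet and exercise was called for none of the 8 genes and for 0 of all genes (0%), with limma differences of 0.10 to 0.51 for the members and an adjusted p of 1.00 for each. At an unadjusted limma p under 0.05 the interaction counted 356 of all genes and 0 of the 8.

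Other genes of the fat cell were read beside the members. Of the 18 adipocyte markers, averaged over the 2 states, 7 were higher and 11 lower, and the median difference was -0.02. Of these, 1 was called higher and 1 lower, against 0.959% of all genes. Cidea, a droplet protein of brown and white adipocytes, rose by 0.68 (SE 0.13, limma adjusted p = 0.0180), from group means of 0.797 and 0.628 FPKM on the control diet to 1.64 and 1.23 FPKM on the high-fat diet. Adrb3, the beta3-adrenergic receptor through which noradrenaline starts lipolysis, fell by 0.73 (SE 0.15, adjusted p = 0.0267), from 1.19 and 0.816 to 0.428 and 0.399 FPKM. The summed FPKM of the 21 markers found in the table ranged from 312 to 357 in CON-pre, 288 to 348 in HFD-pre, 316 to 359 in CON-post and 282 to 371 in HFD-post. Some of these genes, such as Gpd1, are also expressed by muscle fibres.

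Of 16 further adipokines and genes tied to fat-cell size, averaged over the 2 states, 10 were higher and 6 lower, with a median of 0.34. Of these, 2 were called, both higher, against 0.959% of all genes. Npr3, the clearance receptor for natriuretic peptides, rose by 0.94 (SE 0.11, limma adjusted p = 0.000308), with means of 0.917, 1.53, 0.889 and 3.12 FPKM for CON-pre, for HFD-pre, for CON-post and for HFD-post. Npr3 was also called after exercise, at 1.36 (adjusted p = 0.000968), and between HFD-post and HFD-pre, at 0.82 (adjusted p = 0.0224). The latter call was lost in 10 of 31 alternatives. Nnat, neuronatin, rose by 1.85 (SE 0.31, adjusted p = 0.00519), with means of 1.99, 6.81, 2.90 and 12.5 FPKM in the same order. Of 3 tested brown adipocyte markers, Cidea alone was called.

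**Figure D5:**
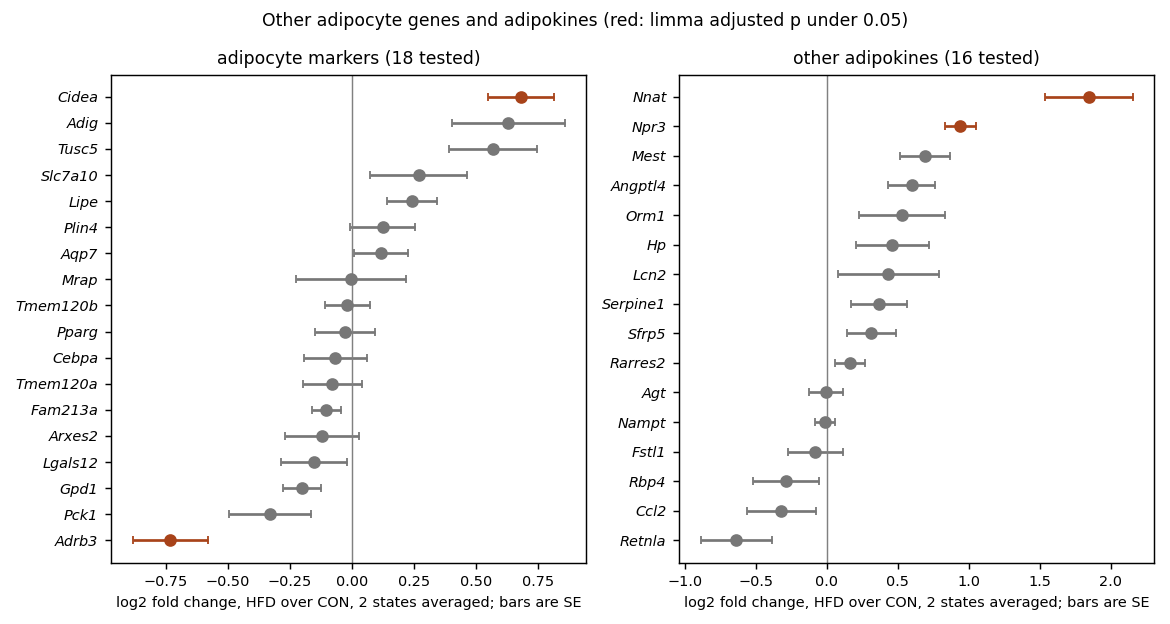
Log2 fold change of HFD over CON, averaged over the 2 exercise states, for 18 adipocyte markers and for 16 other adipokines and genes tied to fat-cell size. Bars are SE, and red marks a limma adjusted p under 0.05. Cidea, Nnat and Npr3 lie to the right of 0 and Adrb3 to the left, and the median of the adipocyte markers is -0.02.

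Receptors for these hormones and the pathways they feed were examined from the same table. None of 8 tested adipokine receptors and partners was called, the lowest p being that of Cdh13, T-cadherin, which binds adiponectin, at 0.16 (limma adjusted p = 0.204). Of 8 tested genes of the alternative complement pathway, in which adipsin acts, none was called and all had values below 0, with a median of -0.23. The lowest p there was that of C3, the central complement protein, at -0.42 (adjusted p = 0.166). Of 17 lipogenic genes, 11 were lower and 6 higher over the 2 states averaged, and 3 were called, all lower, against 0.959% of all genes. These were Fasn, fatty acid synthase, lower by 1.37 (adjusted p = 0.000436), Acaca by 0.52 (adjusted p = 0.00135) and Acly by 0.57 (adjusted p = 0.0320). Fasn and Acaca were also called before exercise, at -1.71 (adjusted p = 0.00440) and -0.67 (adjusted p = 0.00837). After exercise none of the 17 was called, and 10 were higher and 7 lower.

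Droplet and fatty acid handling genes of the muscle fibre include relatives of Plin1 and Fabp4. Of 14 lipid droplet genes other than the members, 11 were higher and 3 lower with diet over the 2 states averaged. Of these, 3 were called, all higher, against 0.959% of all genes. Plin5, the perilipin of oxidative tissues, rose by 1.21 (limma adjusted p = 0.000658), the monoglyceride lipase gene Mgll by 0.45 (adjusted p = 0.0163), and Cidea is the third. Plin5 was also called for diet before exercise, at 1.52 (adjusted p = 0.00588). With exercise, Plin5 rose by 1.16 (adjusted p = 0.0126) and Pnpla2, the adipose triglyceride lipase gene, by 0.46 (adjusted p = 0.0157) on the control diet, and G0s2, an inhibitor of that lipase, rose by 0.89 (adjusted p = 0.0224) on the high-fat diet. Of 9 fatty acid binding and uptake genes, 7 were higher and 2 lower with diet over the 2 states averaged, and 3 were called, all higher. These were Fabp3, the muscle counterpart of Fabp4, higher by 1.22 (adjusted p = 0.00251), Cd36 by 0.55 (adjusted p = 0.00196) and Slc27a1 by 0.41 (adjusted p = 0.0197). Cd36 was also called before exercise, at 0.64 (adjusted p = 0.0229). Fabp4 itself differed by 0.15 and Plin1 by 0.14, neither called.

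Markers of other cells that can express the members were read beside them. Among 10 capillary endothelial markers none was called for diet and the median was 0.10. Between HFD-pre and HFD-post, 6 of the 10 were higher and 4 lower, with a median of 0.16, where Fabp4 differed by 0.40. Pecam1 alone was called there, at 0.39 (limma adjusted p = 0.0347), a call lost in 14 of 31 alternatives. With exercise on the control diet none was called, 9 were higher and 1 lower, and the median was 0.27, where Fabp4 differed by 0.30. The sum of the 10 ranged from 83.2 to 104 FPKM in CON-pre, 94.3 to 121 in HFD-pre, 113 to 149 in CON-post and 122 to 151 in HFD-post. None of 6 macrophage markers was called for diet (median -0.14), and the sums of the 9 found in the table ranged from 60.2 to 108 FPKM in CON-pre, 54.5 to 74.7 in HFD-pre, 49.3 to 122 in CON-post and 45.7 to 92.2 in HFD-post. None of 5 Schwann cell and nerve markers was called for diet (median 0.04), with the neurofilament gene Nefl listed at 0 in every library. None of 9 stromal, 6 blood cell or 9 muscle markers was called for diet, the lowest p among the muscle markers being that of Ckm, at -0.21 (adjusted p = 0.0870). The part of these cells in the values of the members was not tested.

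The genes whose pattern over the 16 libraries was most like each member were found by Pearson's r on log2(FPKM + 0.5), as a description, since the libraries share their groups. Lep was most like Sncg (r = 0.93, and 0.78 after each group was centred on its mean), followed by Npr3 (0.92 and 0.89) and Nnat (0.91 and 0.73). Sncg was in turn most like Lep, Tusc5 (0.89) and Tmem45b (0.88), Tusc5 being a gene of adipocyte glucose transport. Adipoq was most like Cidec (0.90 and 0.89), Serpina3c (0.86) and Trmt13 (0.83), and Cidec like Adipoq, Chp1 (0.87) and Fabp4 (0.87). The Adipoq and Cidec likeness was as strong within groups as over them, whereas that of Cfd to Cyp2e1 was 0.88 over all libraries and 0.30 within groups. The nearest genes to Cfd were Slc1a3 (0.91) and Asrgl1 (0.90). Retn was most like R3hdm4 (0.88), Plin1 like Dact2 (0.85) and Fabp4 like Itm2b (0.92).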

How the data were processed

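Polyadenylated RNA of 16 quadriceps muscles was sequenced from stranded mRNA libraries. The authors aligned reads with TopHat and quantified genes with Cufflinks on mm9, per the labels and the study's methods, and deposited FPKM values, in 1 table for all libraries (versions were not given in the sources used here). FPKM hold no read counts, so no counting interval was computed, and depth was judged only from the smallest values. Entries with the same symbol (260 symbols) were summed, and 27 entries whose symbols had turned into dates (0.0771% of FPKM) were dropped. Genes averaging 0.5 FPKM or more were tested with limma 3.58.1 (R 4.3.3, trend) on log2(FPKM + 0.5), in 1 fit of 4 groups, with Benjamini-Hochberg adjustment over 11256 genes and calls at an adjusted p under 0.05. The test was checked on simulated data. Promoter windows came from a RefSeq table of GRCm38.p6, in which 7 of the 8 members were found. That build differs from mm9, so no coordinate of the expression table was used.

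The 8 genes and the gene lists were chosen with earlier results of these data known. All 8 members were named, and from each list and comparison up to 3 called genes by lowest adjusted p. Where a list had no call, up to 2 genes by lowest p could be named and not all were. The 1 to 3 genes most correlated with each member and defining cell markers were also named. Alternatives were other pseudocounts (0.1 and 1), filters, scalings, variance settings, covariates, a replicate block and leaving out each library. Replicate numbers did not pair the samples. The result of 1 gene list is not reported here.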

Additional observations from a re-analysis of the deposited data

Results flagged for a closer look

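Of the 32 sets of 4 values (8 genes in 4 groups), 1 held a library far from the other three: Fabp4 in CON-post replicate 1 was at 269 FPKM, with the others between 359 and 373 FPKM. The gap to its neighbour was 0.868 of the range of the group, above Dixon's 95% limit for 4 samples. Chance flags about 1 in 20 such sets.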

How the results depend on the processing

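The calls of Lep, Cfd and Sncg averaged over both exercise states held under 30 alternatives. Of the calls within a state, that of Cfd before exercise held under 31 of 31 alternatives (limma adjusted p at most 0.0231), but the others were less stable. Leaving out 1 library gave 1 to 2 called members before exercise, 0 to 2 after it, and 0 to 1 for exercise on the high-fat diet. After exercise the count was 1 with no filter, 0 with only the compared groups and 0 without HFD-post replicates 2 and 4. Lep lost its call after exercise without CON-post replicate 2 (adjusted p = 0.0534) and Cfd without any of CON-post replicates 2, 3 and 4 or HFD-post replicates 1 and 2 (0.0642 to 0.111). The cause was not tested. Replicate numbers did not pair the samples (r of deviations -0.22 to 0.21 over 24 same-numbered pairs, and 6 of 16 libraries correlated best with their own number). A replicate block called 32, 17, 87, 116, 42 and 0 genes in the 6 comparisons, in place of 39, 17, 108, 125, 61 and 0, with 2, 2, 3, 0, 0 and 0 members. Counts over all genes before exercise were 63 with array weights and as low as 21 with 1 library left out. After exercise they were 2 with only the compared groups, 4 without HFD-post replicates 2 and 4 and as low as 5 with 1 library left out. For exercise they were 72 on the control diet with only the compared groups and as high as 190 with 1 library left out, and on the high-fat diet 23 with the marker covariate, 37 with no filter, 6 without HFD-post replicates 2 and 4 and as low as 21 with 1 library left out. At a threshold of 0.1 they were 62, 30, 178, 208 and 93 in the order above.

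Signs of differences that were not called also turned. Leaving out 1 library gave ranges of -0.033 to 0.17 for Adipoq, -0.18 to 0.075 for Plin1 and -0.0050 to 0.22 for Cidec for diet before exercise, and of -0.020 to 0.31 for Cfd, -0.093 to 0.26 for Adipoq, -0.20 to 0.10 for Plin1 and -0.15 to 0.17 for Sncg with exercise on the control diet. In that last comparison Adipoq and Sncg were at -0.011 and -0.017 with upper-quartile scaling, and Adipoq at -0.0026 with quantile normalization. With the marker covariate it gave -0.12 for Lep, -0.084 for Cfd, -0.30 for Adipoq, -0.14 for Retn, -0.095 for Cidec and -0.31 for Sncg, and exercise on the high-fat diet -0.0083 for Retn and -0.11 for Sncg. With Adipoq as covariate, Fabp4 after exercise was at -0.029, Plin1 averaged at -0.017, and Sncg with exercise at -0.0017 on the control and -0.0061 on the high-fat diet. Without HFD-post replicates 2 and 4, Adipoq, Plin1, Cidec and Fabp4 after exercise were at -0.13, -0.10, -0.025 and -0.14, Adipoq, Plin1 and Fabp4 averaged at -0.026, -0.10 and -0.022, and Lep, Adipoq, Retn, Plin1 and Sncg with exercise on the high-fat diet at -0.070, -0.17, -0.090, -0.073 and -0.37. Among list genes, the averaged call was lost in 15 of 30 alternatives for Acly and 8 of 29 for Adrb3, without HFD-post replicates 2 and 4 for Cidea (adjusted p = 0.0810), Mgll (0.0924) and Slc27a1 (0.101), and without CON-post replicate 2 for Slc27a1 (0.0513), and the exercise call on the high-fat diet in 14 of 31 for Pecam1 and 10 of 31 for each of Npr3 and G0s2. On the control diet it was lost in 8 of 31 for Pnpla2 and 2 of 31 for Plin5. The diet call before exercise was lost in 1 of 31 alternatives for Plin5 (limma adjusted p = 0.0559) and in 7 of 31 for Cd36. For Cd36 these included leaving out any 1 of CON-pre replicates 1 and 2 and HFD-pre replicates 1, 3 and 4.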
